A study of Mus musculus with 22 samples.

Results

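In all, 8 genes of the mouse 2-cell embryo program were examined in 16 peak lists from ES cells treated with a gapmer against TERRA, the telomeric repeat-containing RNA, or with a control. The 8 genes (Zscan4c, Zscan4d, Zscan4f, Tcstv1, Tcstv3, Zfp352, Dppa2 and Dppa4) were taken by name from 26180 RefSeq genes with a curated transcript, as listed 2-cell stage genes and their activators. The rule that chose them used no peak value, but the choice was made with earlier results of these data known. For each gene, peaks were counted within 1 kb of its transcription start site (TSS), in its gene body, and in its region, meaning the gene body with 20 kb on each side.

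The cells were the mouse 16.7 ES line, a female hybrid of the strains CAST/Ei and 129/Sv/Jae, kept in serum medium with LIF and separated from its feeder cells before nucleofection. Both groups received a locked nucleic acid (LNA) gapmer, an antisense oligonucleotide that triggers RNase H cleavage of its target, and were collected 12 h later. The gapmer was directed at TERRA in the TERRA KD group and was a scramble sequence in the scramble KD group. In each group 2 lists were deposited for each of 4 assays: ChIP-seq of the chromatin remodeler ATRX, of the heterochromatin mark H3K9me3 and of G-quadruplex (G4) DNA captured with the BG4 antibody, and ATAC-seq, which maps accessible chromatin. All lists thus came from 1 cell line, the labels do not say whether replicates were separate cultures (the study's text calls the ATRX and G4 pairs biological replicates), and the level of TERRA itself is not measured by a peak list. Filtered tags per library ranged from 4104486 to 15506154 for ATRX, from 5435286 to 13898785 for H3K9me3, from 2961038 to 24588605 for G4 and from 5976014 to 7883648 for ATAC. The number of peaks differed between lists of the same assay, with 7321 to 41384 ATRX peaks, 25490 to 76213 H3K9me3 peaks, 140119 to 389434 G4 peaks and 78571 to 103911 ATAC peaks, so that counts were read against the length of each list. An ATAC peak lay within 1 kb of the TSS for 9 or 10 of 10 ES cell marker genes in every library, and for 4 to 6 of 9 fibroblast (feeder) markers. Over all genes the share was 59.4% to 64.2%, so that the fibroblast count does not tell whether feeder cells were present.

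In ES cell cultures a small and changing fraction of cells enters a 2-cell-like state in which Zscan4 genes are expressed. Zscan4 encodes zinc finger proteins tied to telomere lengthening by recombination, and the Tcstv genes, which lie near a chromosome end, have also been linked to telomere length in ES cells. Zfp352 encodes a further zinc finger protein of the 2-cell embryo. Dppa2 and Dppa4 encode partner DNA-binding proteins that ES cells express and that act upstream of Dux, the transcription factor that turns on the 2-cell genes. All measurements were made on bulk cultures, so that fewer cells in a state and a weaker signal per cell cannot be told apart.

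In the GRCm38 annotation, Zscan4c (chr7:11005745-11010547, plus strand), Zscan4d (chr7:11161643-11166148, minus strand) and Zscan4f (chr7:11397915-11402318, plus strand) stood in 1 cluster of gene copies. Tcstv1 (chr13:119893387-119894785, minus strand) ended 0.427 Mb before the last assembled base of chromosome 13, and Tcstv3 (chr13:120316862-120318261, plus strand) ended 3378 bp before it. Zfp352 lay at chr4:90218820-90225687 on the plus strand. Dppa4 (chr16:48283735-48294292) and Dppa2 (chr16:48310274-48319513) were neighbours on the plus strand whose regions overlap and share peaks. A region extended over 41.4 to 50.6 kb, except that 16622 bases of the Tcstv3 region are not assembled.

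RefSeq promoter sequences (250 bases before to 50 after the TSS) were found for 4 of the 8 genes: Zscan4c, Zscan4d, Zscan4f and Zfp352. No entry was used for Tcstv1, Tcstv3, Dppa2 and Dppa4. The 3 Zscan4 promoters are shown because they are almost the same sequence, which bears on every count in this cluster. Capitals mark in Zscan4c the bases that differ in either other copy, and in Zscan4d and Zscan4f the bases that differ from Zscan4c (chr7:11005495-11005794, plus strand; chr7:11166099-11166398, minus strand; chr7:11397665-11397964, plus strand; all GRCm38.p6, written 5′ to 3′).
Zscan4c: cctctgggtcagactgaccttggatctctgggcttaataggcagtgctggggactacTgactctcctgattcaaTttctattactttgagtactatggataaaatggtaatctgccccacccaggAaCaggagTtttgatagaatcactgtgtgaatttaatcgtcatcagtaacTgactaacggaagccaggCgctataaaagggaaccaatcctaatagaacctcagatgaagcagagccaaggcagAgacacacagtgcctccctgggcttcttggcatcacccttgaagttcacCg
Zscan4d: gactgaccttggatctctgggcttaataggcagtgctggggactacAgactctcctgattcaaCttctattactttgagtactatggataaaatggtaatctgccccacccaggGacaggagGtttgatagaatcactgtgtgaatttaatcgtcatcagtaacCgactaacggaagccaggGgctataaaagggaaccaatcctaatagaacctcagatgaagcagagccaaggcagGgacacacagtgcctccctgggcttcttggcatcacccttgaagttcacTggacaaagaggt
Zscan4f: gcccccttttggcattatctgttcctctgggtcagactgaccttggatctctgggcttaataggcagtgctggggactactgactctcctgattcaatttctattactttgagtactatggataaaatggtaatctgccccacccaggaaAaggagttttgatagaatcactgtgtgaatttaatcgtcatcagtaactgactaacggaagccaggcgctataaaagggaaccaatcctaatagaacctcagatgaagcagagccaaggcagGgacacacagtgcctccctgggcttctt
The Zscan4c and Zscan4f promoters differed at 2 of 277 aligned bases, and those of Zscan4c and Zscan4d at 8 of 289. The word TATAAAAG, searched on both strands, stood in all 3 and in 1.70% of 32851 RefSeq promoters of the same length. The word TGATTCAAT, which resembles the site of Dux and was chosen after the sequences were seen, stood in Zscan4c and Zscan4f but not in Zscan4d, where 1 of the differing bases falls in it, and in 0.113% of all promoters. The word TGCACAC was in none of the 4 promoters and in 4.4% of all.

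The Zfp352 promoter (chr4:90218570-90218869, plus strand) is shown because most of it is a tandem repeat, in which capitals mark the word found most often.
Zfp352: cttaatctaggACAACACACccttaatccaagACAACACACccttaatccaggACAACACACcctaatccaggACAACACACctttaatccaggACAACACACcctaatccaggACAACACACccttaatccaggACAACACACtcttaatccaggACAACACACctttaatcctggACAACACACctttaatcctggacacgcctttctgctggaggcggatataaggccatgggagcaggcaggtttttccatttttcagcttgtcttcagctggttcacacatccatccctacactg
The 9-base word occurred 9 times at spacings of 20 or 21 bases. No G4 motif (4 runs of 3 or more G with loops of up to 7 bases, either strand) was present in these 4 promoters, against 18.6% of all promoters. In the wider window of 1 kb on each side of the TSS, such a motif was present at Tcstv3, Zfp352, Dppa2 and Dppa4 and not at the Zscan4 genes or Tcstv1, against 54.9% of all genes. The GC content of the window was 37.6% to 44.5% at the 8 genes, against a median of 50.9% over all genes.

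Reads from near-identical copies cannot be placed with certainty. Within 1 kb of the TSS, 48.4% of 150-base words of Zscan4c and 56.6% of those of Zscan4f occurred more than once in the assembly, against 7.20% for Zscan4d, 14.6% for Tcstv1, 10.3% for Tcstv3 and 0 for Zfp352, Dppa2 and Dppa4. Over the regions the shares were 50.7% for Zscan4c, 56.6% for Zscan4f, 13% for Zscan4d, 20.3% for Tcstv1 and at most 4.04% for the other genes. With 100-base words sampled along the TSS window, more than 50% were repeated at 3.16% of all genes. By that measure the share was 60.4% at Zscan4c, 69.8% at Zscan4f and at most 24.0% at the other members. A count of 0 at Zscan4c or Zscan4f is therefore a count of what the aligner placed there, and the copies in the assembly are those of another strain.

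Among the 8 genes, ATAC peaks at the start sites were found only at 2. Dppa2 and Dppa4 had an ATAC peak within 1 kb of the TSS in all 4 lists, while Zscan4c, Zscan4d, Zscan4f, Tcstv1, Tcstv3 and Zfp352 had none in any list. The count was thus 2 of 8 genes in every ATAC list. Over all 26180 genes, the share with such a peak was 59.4% and 63.5% after scramble KD and 62.3% and 64.2% after TERRA KD. At those shares a peak at both Dppa2 and Dppa4 is not a result about them. The absence at Zscan4c and Zscan4f is limited by the repeated words given above. Duxf3, another 2-cell stage gene described below, had such a peak in all 4 lists. The nearest ATAC peak to the Tcstv1 TSS was 54.6 to 58.6 kb away in the 4 lists, and that to the Zfp352 TSS was 15.1 kb away in TERRA KD replicate 2 and 66.9 to 67.1 kb in the other 3.

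No member had an ATRX, H3K9me3 or G4 peak within 1 kb of its TSS in any of the 12 lists. For ATRX, 1.07% and 0.588% of all genes had one after scramble KD and 8.22% and 4.83% after TERRA KD. For H3K9me3 the shares were 2.28% and 1.96% after scramble KD and 2.35% and 2.07% after TERRA KD. At those shares an absence from 8 genes is not a result about these genes. For G4, 41.2% and 64.1% of all genes had a peak there after scramble KD and 48.5% and 22.1% after TERRA KD. The gene bodies held no ATRX peak, 1 H3K9me3 peak (at the end of Zfp352, TERRA KD replicate 1) and 1 G4 peak (Dppa2, scramble KD replicate 1). ATAC peaks stood only in the bodies of Dppa2 and Dppa4. No share over all genes was computed for gene bodies, so these counts are a description only.

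**Figure D1:**
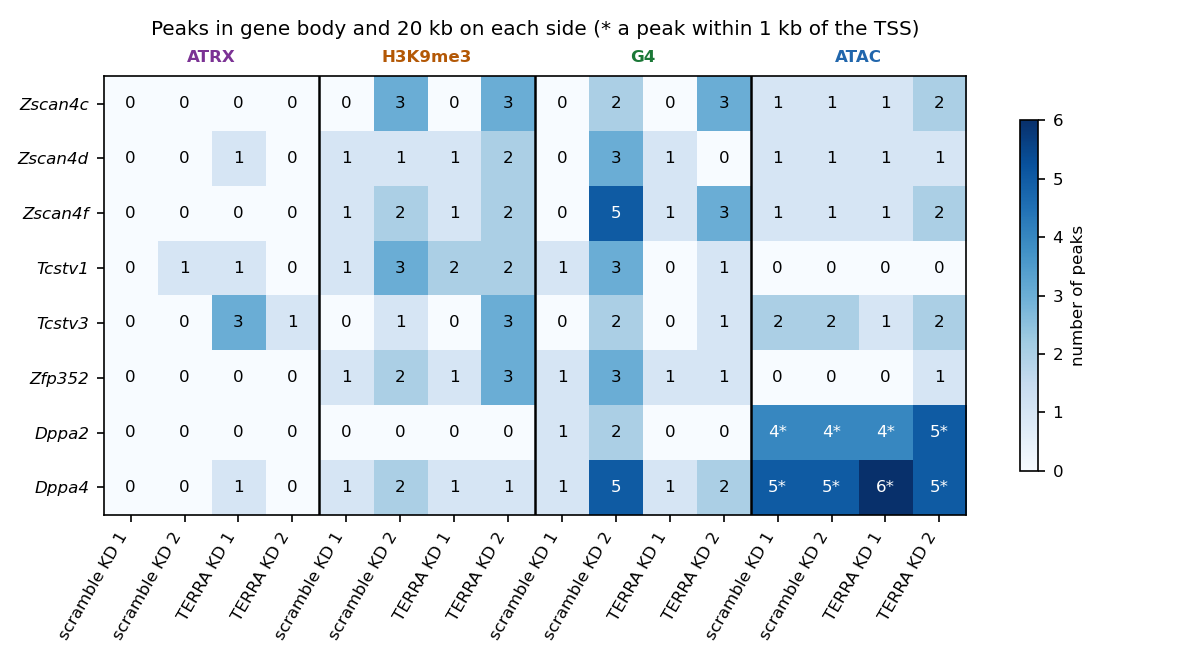
Number of peaks in the gene body and 20 kb on each side, for 8 genes (rows) in 16 peak lists (columns, by assay, condition and replicate), with darker blue for more peaks and an asterisk for a peak within 1 kb of the TSS. Asterisks stand only at Dppa2 and Dppa4 in ATAC, and the ATRX block is 0 in all cells except 6.

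ATRX, which TERRA is known to bind, had between 0 and 6 peaks per list in these regions. Over the 7 merged regions (322.5 kb of assembled sequence) there were 0 and 1 peaks after scramble KD and 6 and 1 after TERRA KD (replicates 1 and 2), where the mean density of each list over the genome gave 0.892 and 1.66, and 5.04 and 2.65. The log2 ratio of observed to expected, each with 0.5 added, was -1.0 ± 0.67 (SD, n = 2) in scramble KD and -0.42 ± 0.92 in TERRA KD. The 2 conditions overlapped, and the difference of 0.58 was smaller than the spread within TERRA KD. With 2 lists against 2 the smallest two-sided p of an exact permutation test is 0.333, so no difference between conditions here could pass a threshold of 0.05.

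Tcstv3 was the 1 member whose ATRX counts did not overlap between conditions. Its region held no peak (0 and 0) after scramble KD, and after TERRA KD it held 3 in replicate 1 and 1 in replicate 2 (exact permutation p = 0.333). Over all genes, both TERRA KD lists were higher for 26.1% and lower for 0.638%. The 4 peaks were at 4 places, at -13.3, -3.71 and -2.75 kb from the TSS in replicate 1 and from -9.46 to -8.28 kb in replicate 2, and those at -13.3 and -9.46 kb overlapped exons of the neighbouring gene BC147527. The peak of replicate 2 was the strongest, with a -log10 p of 4.03, and the other 3 had values from 2.03 to 2.44, where 2 is the limit of the lists. Cutting the longer list of each replicate to the length of the shorter, by rank, left a mean difference of 0.5 peaks in place of 2. Tcstv1 had 1 peak in each of 2 lists, replicate 2 of scramble KD and replicate 1 of TERRA KD. Zscan4d and Dppa4 each had 1 peak, in TERRA KD replicate 1, the longest ATRX list, and Zscan4c, Zscan4f, Zfp352 and Dppa2 had none in any list. Each of the 8 ATRX sites in the member regions was found in 1 list. Regions with an ATRX peak numbered 0 and 1 of 8 in scramble KD and 4 and 1 of 8 in TERRA KD. Over all genes the shares with one in the region were 20.6% and 25.6%, and 67.2% and 49.9%.

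H3K9me3 is the mark of constitutive heterochromatin that ATRX can recognise. Its peaks lay mostly beside the genes, as evenly spread peaks would, since gene bodies are 1399 to 10558 bases of much longer regions. The merged regions held 5 and 14 peaks after scramble KD and 6 and 16 after TERRA KD, against 3.22 and 9.28, and 3.11 and 9.13 expected, so all 4 lists were above their own mean density. The log2 ratio was 0.56 and 0.57 after scramble KD and 0.85 and 0.78 in TERRA KD, so the conditions did not overlap and the difference was 0.25. That difference corresponds to 1 peak more in replicate 1 and 2 more in replicate 2, and it was 0.029 without the Zscan4 and Tcstv genes. No member taken alone had counts that did not overlap between conditions. Over all genes such counts were higher in TERRA KD for 1.55% and lower for 1.82%.

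Of 19 H3K9me3 sites, 5 were found in all 4 lists. The widest of those 5 near a single-copy gene began at the end of the last exon of Zfp352 and ran downstream, from 6.63 to 13.45 kb past the TSS at its greatest extent. Its highest peak had 136 tags in scramble KD replicate 1, 5 in scramble KD replicate 2, 188 in TERRA KD replicate 1 and 11 in TERRA KD replicate 2. Replicates 1 and 2 differed more than the conditions did, here and over the whole lists, whose median peak was 2404 and 3120 bp wide in the 2 lists of replicate 1 and 491 and 515 bp in those of replicate 2. The replicates also differed in depth. In replicate 1, H3K9me3 tags numbered 12090614 (scramble KD) and 13898785 (TERRA KD), and input tags 3366921 and 3374834. In replicate 2, H3K9me3 tags numbered 5942692 and 5435286, and input tags 19735093 and 28622103. The effect of depth was not tested. At the Zfp352 site the fold enrichment over input was 26.1 and 7.49 after scramble KD and 37.4 and 9.89 after TERRA KD, and the conditions overlapped (exact permutation p = 0.667). Within each replicate number the TERRA KD value was the higher, a direction that 2 pairs are too few to test. Of the other sites in all 4 lists, that of Tcstv1 was higher in both numbers and that of Zscan4d lower in both. Those of Dppa4 and Zscan4f differed in direction between numbers. Upstream of Zfp352, a peak from -18.99 to -18.55 kb was listed in scramble KD replicate 2 and one from -17.06 to -16.61 kb in TERRA KD replicate 2, each with 5 tags.

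The second site near a single-copy gene was upstream of Dppa4, from -17.0 to -14.6 kb. Fold enrichment there was 19.6 and 7.49 after scramble KD and 30.5 and 7.12 after TERRA KD. A G4 site found in 3 lists (-16.4 to -15.7 kb) overlapped it, absent only from scramble KD replicate 1. No H3K9me3 peak was present in the region of Dppa2 in any list. In the Zscan4 cluster, sites in all 4 lists lay downstream of Zscan4d (17.8 to 23.6 kb) and of Zscan4f (20.7 to 29.2 kb). Of their bases 81.6% and 85.0% were soft-masked as repeats in the assembly. The share was 62.0% at the Zfp352 site, 52.5% at the Dppa4 site and 41.2% at the Tcstv1 site found in all 4 lists. No share over the genome was computed. At Zscan4c peaks were present only in replicate 2 of both conditions, 3 in each. Upstream of Tcstv1 a site from -13.9 to -11.5 kb was in all 4 lists, and Tcstv3 had peaks only in replicate 2, 1 in scramble KD and 3 in TERRA KD.

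**Figure D2:**
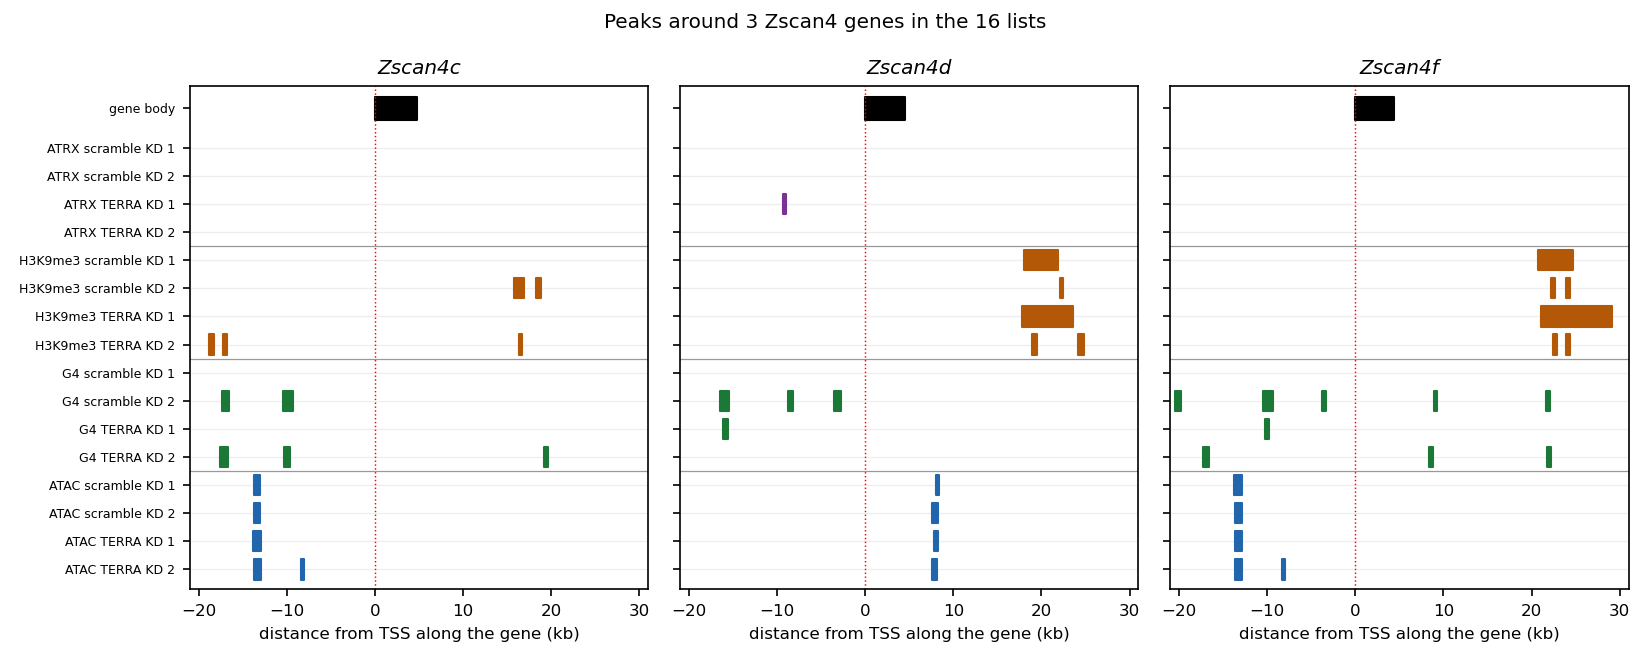
Peaks around Zscan4c, Zscan4d and Zscan4f in the 16 lists (rows), by distance from the TSS along the gene in kb; the black bar is the gene body, the dotted line the TSS, and only peaks that overlap the gene body or the 20 kb on each side are drawn. ATAC peaks stand at the same distance, near -13 kb, at Zscan4c and Zscan4f in all 4 lists, and no bar reaches a TSS.

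G4 peaks, by contrast, were fewer than the mean density of the lists. The merged regions held 3 and 24 peaks after scramble KD and 4 and 11 after TERRA KD, where 17.1 and 47.4, and 21.2 and 27.4 were expected. The log2 ratio was -1.65 ± 0.96 in scramble KD and -1.77 ± 0.70 in TERRA KD, and the difference of -0.13 was within the spread between replicates. The list with the most G4 peaks, scramble KD replicate 2, held 24 of these peaks. Its peaks reached the regions of 8 of 8 members, where 98.8% of all genes had a peak in their region, and the other lists reached 4, 4 and 6 of 8, where 93.9%, 95.4% and 97% of all genes had one. Of 32 G4 sites, 23 were found in 1 list and 12 held a G4 motif. A motif was also in 1 of 8 ATRX, 1 of 19 H3K9me3 and 2 of 19 ATAC sites. No share of G4 peaks with a motif was computed over the genome. Dppa2 was the 1 member with counts that did not overlap, 1 and 2 after scramble KD and 0 in both TERRA KD lists (exact permutation p = 0.333). Over all genes both TERRA KD lists were lower for 7.1% and higher for 0.512%.

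The 1 G4 site found in all 4 lists was downstream of Zfp352, from 26.6 to 27.6 kb past the TSS, across the outer edge of the region. Its -log10 p was 7.94 and 21.2 after scramble KD and 21.2 and 18.9 after TERRA KD, and its fold enrichment 15.9 and 12.3, and 28.0 and 11.7. The 300 bases around its summit (chr4:90245885-90246184, plus strand, GRCm38.p6) are shown because they hold no run of 3 or more G or C. Capitals mark the most frequent 6-base word.
Zfp352 downstream G4 site: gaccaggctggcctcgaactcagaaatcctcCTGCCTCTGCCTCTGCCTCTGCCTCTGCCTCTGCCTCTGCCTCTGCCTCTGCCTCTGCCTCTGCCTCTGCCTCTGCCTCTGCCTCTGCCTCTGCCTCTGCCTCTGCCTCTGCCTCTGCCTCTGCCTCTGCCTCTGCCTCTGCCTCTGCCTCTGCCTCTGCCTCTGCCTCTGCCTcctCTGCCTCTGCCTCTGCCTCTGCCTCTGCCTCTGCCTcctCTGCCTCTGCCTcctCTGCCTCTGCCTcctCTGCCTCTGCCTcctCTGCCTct
The word occurred 42 times and covered 252 of the 300 bases, so that the other strand carries runs of 2 G at regular spacing. At the Zscan4 copies a further G4 site stood at the same distance upstream of Zscan4c (-10.4 to -9.30 kb) and Zscan4f (-10.5 to -9.30 kb), in 2 lists each, over exons of the non-coding RNA Gm7789 and the pseudogene Gm45598.

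Accessible chromatin in the Zscan4 cluster was found away from the genes. Zscan4c had an ATAC site from -13.9 to -12.9 kb and Zscan4f one from -13.7 to -12.8 kb, each in all 4 lists and each within an intron, of the non-coding RNA Gm7789 and of the pseudogene Gm45598. Cores of 300 bases at the Zscan4c summit (chr7:10992329-10992628, plus strand) and the matching place at Zscan4f (chr7:11384537-11384836, plus strand) are shown because they are copies of each other. Capitals mark the bases that differ between them.
Zscan4c upstream: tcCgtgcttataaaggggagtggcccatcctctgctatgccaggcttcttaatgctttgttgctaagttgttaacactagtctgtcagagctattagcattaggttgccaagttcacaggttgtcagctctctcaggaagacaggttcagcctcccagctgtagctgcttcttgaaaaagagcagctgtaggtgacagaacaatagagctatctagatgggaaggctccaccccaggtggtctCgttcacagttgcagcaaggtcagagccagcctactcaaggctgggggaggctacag
Zscan4f upstream: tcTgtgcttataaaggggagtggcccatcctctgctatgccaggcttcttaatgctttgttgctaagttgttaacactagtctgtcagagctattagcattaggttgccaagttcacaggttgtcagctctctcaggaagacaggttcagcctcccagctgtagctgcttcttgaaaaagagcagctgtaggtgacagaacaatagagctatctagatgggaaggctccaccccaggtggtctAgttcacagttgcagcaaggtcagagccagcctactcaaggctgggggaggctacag
The cores differed at 2 of 300 bases. The highest pileup at Zscan4c was 22 and 37 after scramble KD and 35 in both TERRA KD lists, and at Zscan4f it was 17 and 37 after scramble KD and 22 and 39 after TERRA KD. Conditions overlapped at both sites, and in the peaks 31.5% to 41.5% of 150-base words occurred more than once in the assembly, so that reads may have been divided between them. A further ATAC peak near -8.3 kb at both genes was listed only in TERRA KD replicate 2, and all of its 150-base words were repeated. At Zscan4d an ATAC site stood 7.60 to 8.33 kb past the TSS, beyond the gene end, with no repeated 150-base word in any list. Its pileup was low, 5 and 6 after scramble KD and 9 in both TERRA KD lists. Its fold enrichment was 3.25 and 3.45 against 5.13 and 4.73, higher in both TERRA KD lists (exact permutation p = 0.333). Anywhere in the genome, 16% of 55627 ATAC sites found in all 4 lists had higher fold enrichment by the same rule.

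**Figure D3:**
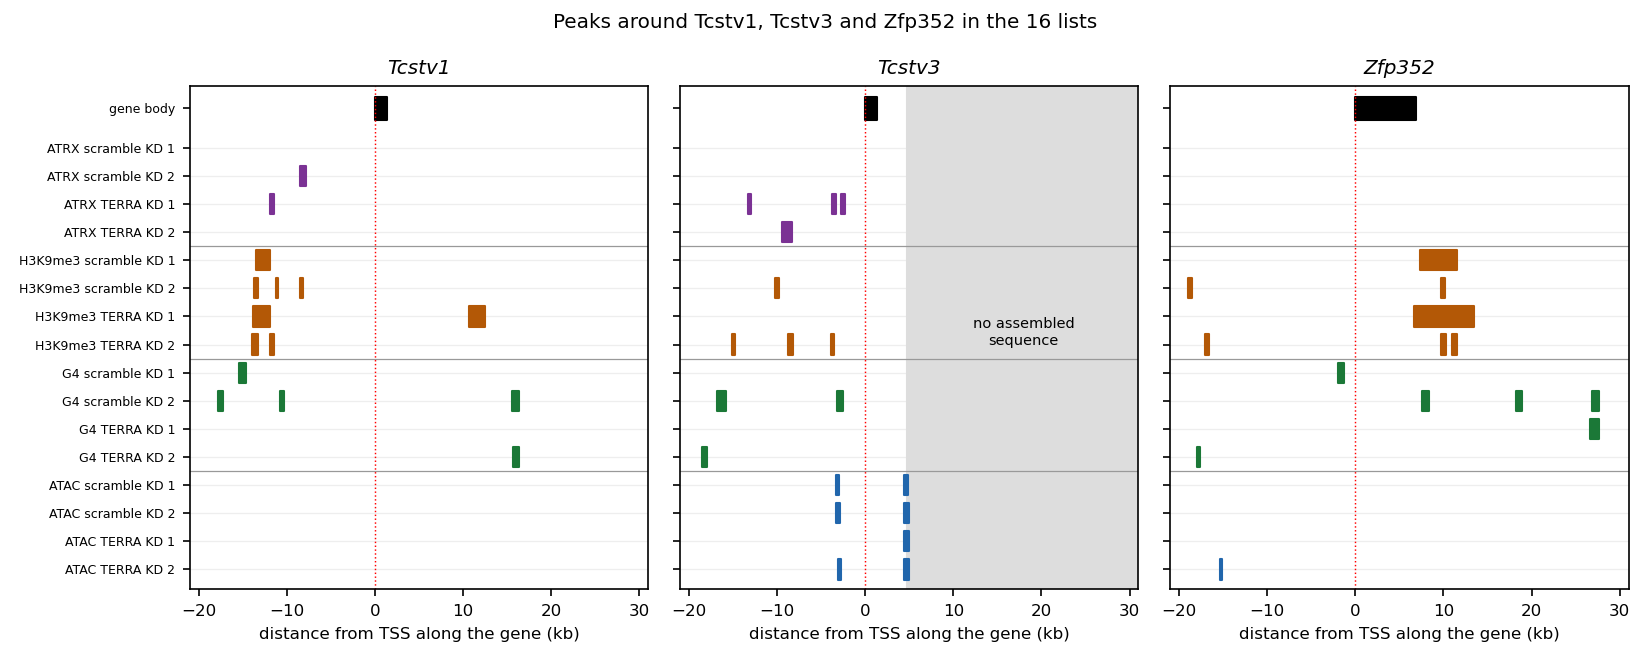
Peaks around Tcstv1, Tcstv3 and Zfp352 in the 16 lists (rows), by distance from the TSS along the gene in kb, drawn as for the Zscan4 genes; the grey area has no assembled sequence. The 4 ATAC peaks past Tcstv3 stand at the edge of the assembled chromosome, and the H3K9me3 bars of Zfp352 stand near or past the gene end in all 4 lists and upstream of -16 kb in the 2 lists of replicate 2.

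The strongest ATAC peak near any member was past Tcstv3, from 4.4 to 4.96 kb, where the assembled chromosome ends 4.78 kb from the TSS. In the 4 lists it ranked 57, 45, 28 and 30 among all peaks, in the order scramble KD replicates 1 and 2 and TERRA KD replicates 1 and 2. Of the 150-base words in this peak, 26.4% to 27.9% occurred more than once in the assembly, and an ATAC peak was present in the last 1 kb of 17 or 18 of 21 chromosomes in every list. ATAC was called without an input library. Its pileup at Tcstv3 was 87 and 112 after scramble KD and 121 and 126 after TERRA KD, and per 1000000 filtered tags it was 14.6 and 14.9, and 18.3 and 16, higher in both TERRA KD lists on both scales (exact permutation p = 0.333). Its fold enrichment over the local background overlapped, at 23.5 and 24.0 after scramble KD and 23.3 and 23.9 after TERRA KD, so the direction depended on the measure. No ATRX, H3K9me3 or G4 peak overlapped this site. The second ATAC site of Tcstv3, from -3.32 to -2.79 kb, had a pileup of 6 in each of 3 lists and was absent from TERRA KD replicate 1.

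At the activators, Dppa2 and Dppa4, 3 of 4 ATAC sites found in every list had lower fold enrichment in both TERRA KD lists. No test here could pass the threshold. Anywhere in the genome, 16.6% of 55627 ATAC sites found in all 4 lists were lower by the same rule. The activator sites were singled out after their values were seen. The strongest of them was between the 2 genes, from -6.98 to -5.99 kb before the Dppa2 TSS. Its fold enrichment was 11.8 and 12.9 after scramble KD and 7.79 and 9.29 after TERRA KD. Its pileup was 44 and 55 after scramble KD and 26 and 37 after TERRA KD, and the 2 conditions did not overlap on either measure (exact permutation p = 0.333). The difference in log2 fold enrichment was -0.53.

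At the Dppa2 TSS (-0.19 to 0.365 kb, over its first exon) fold enrichment was 9.27 and 8.47 after scramble KD and 6.59 and 7.58 after TERRA KD. At the Dppa4 TSS (-1.20 to 0.204 kb) it was 6.79 and 4.98 after scramble KD and 3.15 and 3.91 after TERRA KD. In both places all TERRA KD values were below all scramble KD values (exact permutation p = 0.333 for each). Differences in log2 fold enrichment were -0.33 and -0.73. The Dppa4 peak in TERRA KD replicate 1 was short, from -0.941 to -0.131 kb, and another peak stood from 0.276 to 0.586 kb in that list. The site from -1.52 to -0.707 kb before the Dppa2 TSS overlapped between conditions, with fold enrichments of 2.83 and 5.43 against 4.43 and 4.85.

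**Figure D4:**
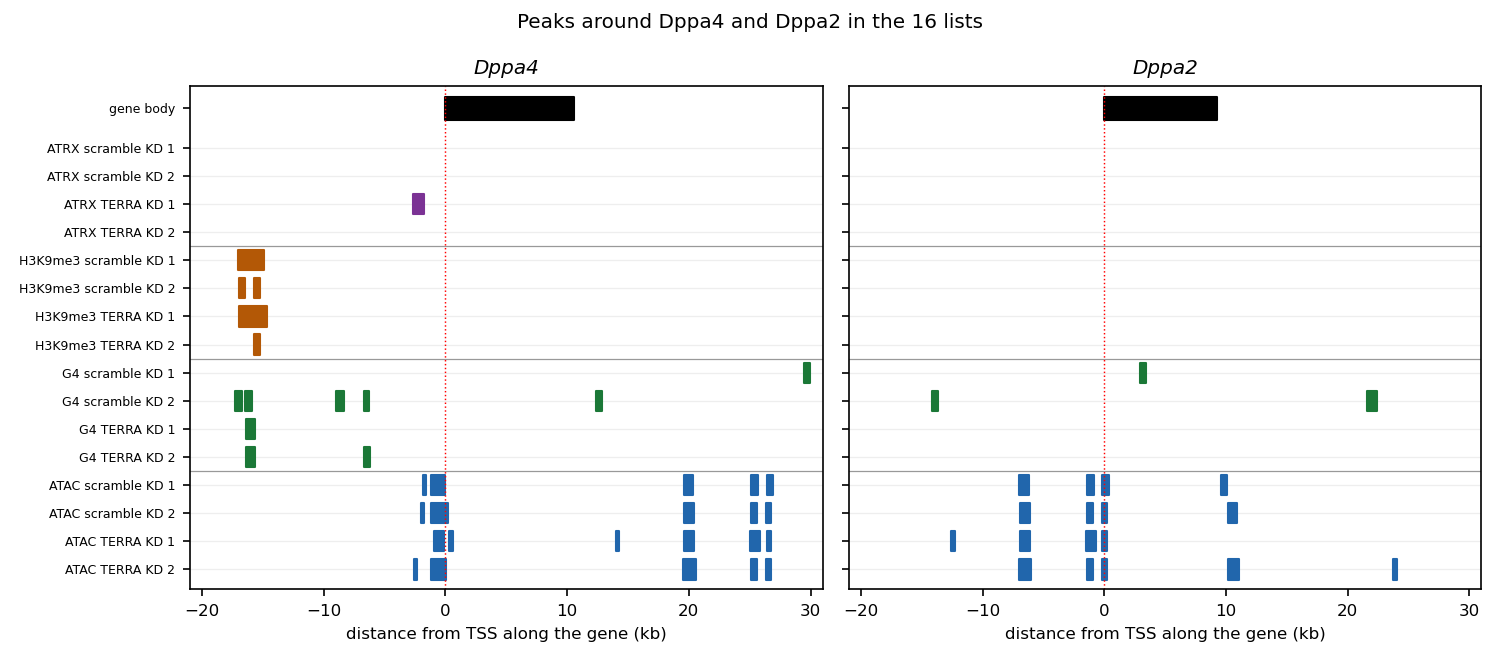
Peaks around Dppa4 and Dppa2 in the 16 lists (rows), by distance from each TSS along the gene in kb, drawn as for the Zscan4 genes; since the genes are neighbours, some peaks appear in both panels. ATAC peaks stand within 1 kb of both TSSs in all 4 lists, H3K9me3 peaks only upstream of Dppa4, and the 1 ATRX bar is in TERRA KD replicate 1.

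Counted over the members, 8 ATAC sites were found in all 4 lists, of which 3 were lower in fold enrichment in both TERRA KD lists, 1 was higher and 4 overlapped. Among 55627 ATAC sites found in all 4 lists anywhere in the genome, 16.6% were lower and 16% were higher by the same rule. These sites were singled out after their values were seen, and 3 of them share 1 locus. The number of ATAC peaks did not follow the heights. In the merged regions 11 peaks were counted in both scramble KD lists and 10 and 15 in TERRA KD, against 9.57 and 11.8, and 10.5 and 12.7 expected, and the log2 ratio was 0.05 ± 0.21 in scramble KD and 0.08 ± 0.22 in TERRA KD. No member had ATAC counts that did not overlap between conditions, against 9.77% of all genes with higher and 3.47% with lower counts in TERRA KD.

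**Figure D5:**
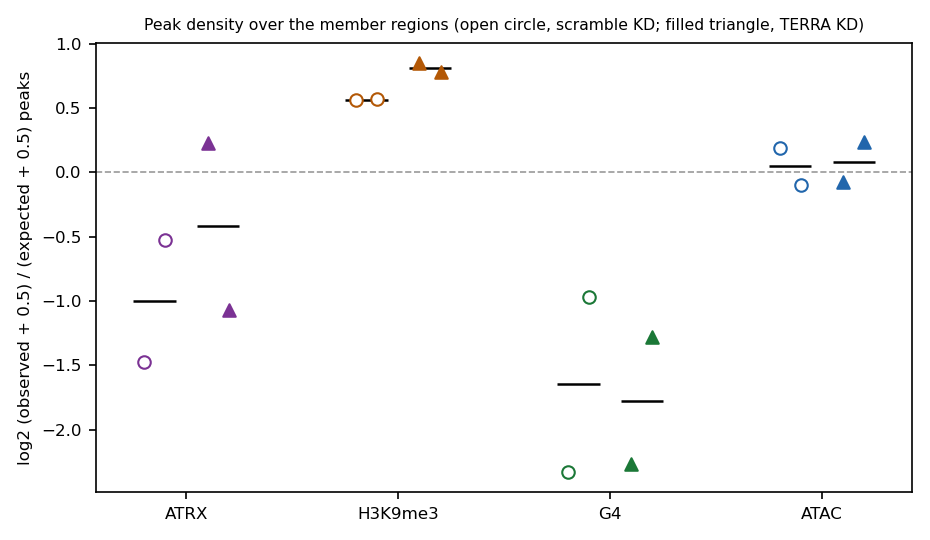
Log2 ratio of observed to expected peaks over the merged regions of the 8 genes, with 0.5 added to both, for each list (open circles, scramble KD; filled triangles, TERRA KD; black lines, means of 2 lists) and 4 assays. H3K9me3 lies above 0 in all 4 lists and G4 below 0, while ATRX and G4 replicates are spread more widely than the conditions.

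Of the 8 ATRX sites, 6 overlapped a site of another assay, as did 8 of 19 H3K9me3 sites, 6 of 32 G4 sites and 3 of 19 ATAC sites. No expected number of overlaps was computed. ATRX and H3K9me3 sites overlapped at 4 places, 2 near Tcstv1 and 2 near Tcstv3, of which the Tcstv1 site from -13.9 to -11.5 kb was the only one present in more than 1 list of either assay. Lists of these 2 assays with the same condition and replicate had equal input tag counts, so their peaks are not independent. At -8.48 kb from Tcstv1 both peaks came from scramble KD replicate 2. At -9.46 kb from Tcstv3 both came from TERRA KD replicate 2. H3K9me3 and G4 sites overlapped in 5 pairs, 2 upstream of Dppa4 and 1 each near Zfp352, Zscan4c and Zscan4f. No H3K9me3 site overlapped an ATAC site (0 of 19). Near -3 kb from the Tcstv3 TSS, sites of all 4 assays adjoined each other: ATRX (TERRA KD replicate 1), H3K9me3 (TERRA KD replicate 2), G4 (scramble KD replicate 2) and ATAC (3 lists). At Dppa4 the 1 ATRX peak overlapped ATAC sites found in 1 and 2 lists.

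The other genes of the program were counted in the same way. Of 22 other 2-cell stage genes 20 had a RefSeq position. An ATAC peak lay within 1 kb of the TSS of 1 to 3 of these 20 in each list and a G4 peak at 1 to 7, where 59.4% to 64.2% and 22.1% to 64.1% of all genes had one. Among them Duxf3, a copy of the Dux gene array, had an ATRX peak in both TERRA KD lists and in neither scramble KD list, the pattern for which it is named and which 0.710% of all genes showed. Duxf3 also had a G4 and an ATAC peak there in all 4 lists of each assay, and an H3K9me3 peak in all except scramble KD replicate 2. A further 3 genes, of the Tdpoz family, also had an H3K9me3 peak there: Tdpoz3 in both TERRA KD lists, Tdpoz4 in replicate 1 of both conditions, and Tdpoz2 in scramble KD replicate 2. The pattern of Tdpoz3 was shown by 0.122% of all genes. All are multicopy genes. The 4 other activators (Dppa3, Nelfa, Tet1 and Tet2) had an ATAC peak in every list, against 59.4% to 64.2% of all genes. They had no ATRX or H3K9me3 peak in any list. Over all genes those shares were 0.588% to 8.22% and 1.96% to 2.35%, so this absence is not a result about them. G4 peaks stood at 1 and 2 activators in scramble KD and at 3 and 0 in TERRA KD. The shares of all genes in those lists were 41.2% and 64.1%, and 48.5% and 22.1%. Of 15 repressors of the program, which include Trim28, Setdb1 and the subunits of the histone chaperone CAF-1, 13 or 14 had an ATAC peak in each list, where 59.4% to 64.2% of all genes had one. None (0 of 15) had H3K9me3, which at shares near 2% of all genes is not a result about them. ATRX peaks stood at 3 repressors in TERRA KD replicate 1, where 8.22% of all genes had one, and at none in the other lists. G4 peaks stood at 7 and 13 repressors in scramble KD and at 10 and 1 in TERRA KD, and the list with 1 was the one in which 22.1% of all genes had such a peak, the lowest share of the 4. Chaf1a, which encodes the large CAF-1 subunit, is named for a G4 peak in both scramble KD lists and in neither TERRA KD list, a pattern shown by 4.74% of all genes.

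Genes whose region counts followed those of a member over the 16 lists were sought among 24120 genes with a peak in at least 8 lists. The 3 closest to Zscan4c were Olfr1062, St8sia4 and Olfr726, with Pearson's r from 0.81 to 0.83. Closest to Zfp352 were Ctsr, 4930590A17Rik and Gm15987 (r from 0.95 to 0.96), and to Dppa4 Gm29543, Glyatl3 and Gm26685 (r from 0.93 to 0.98). The 16 points share 4 assays and their libraries. These genes were picked for the highest of 24120 r values, so a high r is not a result by itself.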

How the data were processed

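Peak lists were those the authors deposited, 1 per library, for 16 of 22 samples; the 6 inputs had no list. Per the labels and the study's methods, reads were trimmed with Trim Galore 0.5.0, aligned to mm10 with Bowtie2 2.3.4.1 and filtered with SAMtools 1.9. Per the file headers, ChIP peaks were called with MACS 1.4.3 (ATRX, H3K9me3) or 1.4.2 (G4) against input and ATAC peaks with MACS 2.2.7.1 without input, all at p 0.01 and without pooling replicates. Both G4 replicates of a condition share 1 input. By their equal control tag counts, the ATRX and H3K9me3 lists of the same condition and replicate also share an input. The deposited ChIP lists give each peak's tag count, a score of -10 log10 p (divided here by 10), fold enrichment as a ratio and FDR in percent (not used). The deposited ATAC lists give pileup signal, -log10 p and q (q not used) and fold enrichment. These values are not scaled to a common depth.

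Genes and TSSs came from RefSeq on GRCm38.p6, the build of the lists. Peaks overlapping a window by at least 1 base were counted in Python 3.11.15 scripts, which were tested on simulated peaks. Expected numbers are the peaks of a list times the assembled share of the window, out of 2647521431 assembled bases. Only exact permutation tests over the 4 lists of an assay, two-sided, were used; they measure the spread between samples, which may be technical. Precision is limited by the 2 lists per condition and by the depths given. The genes named were the 8 members, 3 fixed lists of related genes (named singly where a TSS peak was in both lists of 1 condition and neither of the other, or for H3K9me3 in any list), and the 3 genes closest to 3 members. The sequence at 1 site is not reported here. Members, lists and tests were chosen with earlier results of these data known. Alternatives varied the p limit, overlap rule, list length, window, pseudocount, use of bases covered, multicopy genes, each replicate, and a replicate block.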

Additional observations from a re-analysis of the deposited data

How the results depend on the processing

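None of the 8 values over all members was tested, and with 2 lists a condition none could be called. A limit of 5 on -log10 p moved the TERRA KD minus scramble KD difference in log2 peak density to -0.44 for ATRX, 0.48 for H3K9me3 and 0.96 for G4, and the mean number of members with an ATAC peak at the TSS by -0.5, as Dppa4 lost its peak in TERRA KD replicate 1. For H3K9me3 the difference was 0.13 by peak centres, 0.58 with 10 kb and 0.20 with 50 kb on each side, 0.14 by bases covered and 0.029 without multicopy genes. For G4 it was -0.99 with 10 kb on each side, and for ATAC 0.30 with 50 kb. With 2 kb on each side of the TSS, the difference in members with a peak was 0.5 for ATRX and -0.5 for G4. Leaving out 1 list, the ATRX difference ran from -0.07 to 1.23, that of H3K9me3 from 0.21 to 0.28, that of G4 from -0.80 to 0.55 and that of ATAC from -0.12 to 0.19, and it was 0 for the members with a TSS peak in every assay. Of 320 values for single members under an alternative, 294 stayed within 1 SD between replicates, 26 moved and 18 changed sign. Leaving out 1 list cannot shift a difference by more than that SD, and the replicate block cannot shift it at all. All 26 moves thus came from the other alternatives, and the 294 do not measure stability. The cause of the moves was not tested. At the ATAC sites, chosen after seeing the data, pileup per 1000000 filtered tags gave log2 differences of 0.21 at Tcstv3, 0.11 at Zscan4f and -0.77 at the Dppa2 upstream site, in place of -0.01, -0.15 and -0.53.

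With the replicate block, differences within a replicate number averaged 0.58 (ATRX), 0.25 (the H3K9me3 mark), -0.13 (G4) and 0.04 (accessibility, ATAC). These equal the values without it by arithmetic, so only the spread can change. The SD of the 2 differences was 1.59 for ATRX, 0.05 for H3K9me3 and 0.26 for G4. The smallest p of 2 pairs is 0.5. Deviations of same-numbered lists correlated at r = 0.03, 0.30, 0.56 and 0.11 over 1 Mb bins. For H3K9me3 the replicate number also went with depth and peak width. No source says what a number shares, so the lists were not treated as paired, which leaves differences between replicate numbers in the spread.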
